A study of Mus musculus with 8 samples.

Results

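Imprinted genes are transcribed mainly from the copy inherited from a single parent, and 36 of them were followed here in cultured mouse vascular smooth muscle cells with RNA interference against Uhrf1. The members were named by symbol, and every array probe carrying a member's symbol in the platform annotation was taken. This gave 46 probes for 29 of the 36 genes, out of 16582 genes with a probe in all. H19, Meg3, Kcnq1ot1, Zdbf2, Copg2, Zrsr1 and Slc22a3 had no probe under their symbol. Among the 36, 21 are classed as paternally expressed and 14 as maternally expressed. Gnas, which gives transcripts of both kinds, was kept in neither class.

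Differential methylation of CpG sites, set in the germline and copied at each cell division, tells the parental copies apart. UHRF1 binds hemimethylated CpG sites behind the replication fork and brings in DNMT1, which methylates the new strand. At many clusters the methylated control region lies at the promoter of a paternally expressed gene and silences its maternal copy. At others it acts through an insulator (H19 and Igf2) or a long noncoding RNA that silences its neighbours (Kcnq1ot1, and Airn beside Igf2r). Loss of methylation therefore does not have a single direction of effect across imprinted genes in mouse mutants. In several genes the imprint is known in certain tissues only, such as neurons for Ube3a, placenta for Ascl2, Tssc4, Osbpl5, Slc22a2 and Slc22a3, and a brain transcript for Inpp5f. The arrays measure the summed transcript of both copies and do not say which copy was read.

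The cells were primary vascular smooth muscle cells (VSMC) of male C57Bl6/J mice, 8 weeks old, that carried a lentiviral scrambled hairpin (shSCR) or a hairpin against Uhrf1 (shUHRF1). All groups underwent puromycin selection for 2 days, and RNA was taken after 5 days. There were 2 shSCR and 2 shUHRF1 RNA samples, each hybridised to 2 Illumina bead arrays, called here the first and the second array. Nothing in the labels ties an RNA sample to its own animal or culture, or tells whether the shUHRF1 samples share a hairpin. The p-values therefore rest on the spread among these 4 samples alone, and that spread may be technical. A level below is a normalized log2 signal, and a difference is shUHRF1 minus shSCR on that scale. n is 2 RNA samples per group throughout.

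The targeted gene went with the labels. Uhrf1 was 6.75-fold lower in shUHRF1 cells (difference -2.76, moderated standard error (SE) 0.23), and Dnmt1 differed by -0.56 (SE 0.21). The cell type was represented by Acta2 and Tagln, detected on all 8 arrays, whereas Myh11, Cnn1 and Myocd were detected on none. The arrays did not all group by RNA sample. Over 10880 probes, each array's deviations from the 8-array mean had a correlation of 0.55 and 0.59 between the arrays of shSCR samples 1 and 2, at 0.24 between those of shUHRF1 sample 1, and at -0.01 between those of shUHRF1 sample 2. The first arrays of the different shUHRF1 samples correlated at 0.36. Whether both arrays of shUHRF1 sample 2 hold the same RNA cannot be told from the files. This limits its means and every difference over both samples, so its arrays are given singly for each tested member. The means of shUHRF1 sample 1 are limited too. Its first array correlated more with the first array of sample 2 than with its own second array.

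The members were detected about as often as other genes on the arrays. A probe was tested when all 4 arrays of 1 or both groups gave it a detection p under 0.05, and a gene was represented by its brightest tested probe. By this rule 12 of the 29 genes with a probe were tested, 41.4% against 45.2% of all 16582 genes. They were 6 of 18 paternally expressed genes (Dlk1, Igf2, Impact, Ndn, Snrpn and Inpp5f), 5 of 10 maternally expressed genes (Igf2r, Slc22a18, Ube3a, Grb10 and Tssc4) and Gnas. 10 of the 12 were detected on all 8 arrays, Grb10 on 7 and Igf2 on 5. Igf2 thus entered through the shUHRF1 group, with 4 of 4 shUHRF1 arrays and 1 of 4 shSCR arrays detected.

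The remaining 17 genes with a probe stayed at or near background in both groups. 9 (31.0%) were detected on 0 of 8 arrays, where 37.9% of all genes were. They were Peg3, a zinc-finger gene, and its divergent neighbour Usp29, Zim1 in the same cluster, the retrotransposon-derived Peg10 with its neighbour Sgce (epsilon-sarcoglycan), the zinc-finger transcription factor gene Plagl1, Peg12, Nap1l5 and the cation transporter gene Slc22a2. The other 8 were detected on 1 to 4 arrays. Dio3, a deiodinase that inactivates thyroid hormone, was found on 2 arrays of each group, and Ascl2, a trophoblast transcription factor, on 1 of each. Magel2, Phlda2 and Nnat were found on 1 shUHRF1 array each, and Mest, Osbpl5 and Slc38a4 on 1 shSCR array each. These single detections were split evenly between the groups.

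Over the 30 untested probes of these and the tested members, 6 of 120 shSCR readings (5.0%) and 7 of 120 shUHRF1 readings (5.83%) fell under the detection threshold of 0.05. Among all 14789 untested probes the shares were 7.62% and 9.24%. No member undetected on all shSCR arrays was detected on more than 1 shUHRF1 array. Mean normalized levels of these probes lay between 4.28 and 4.80 in shSCR and 4.29 and 4.77 in shUHRF1 cells.

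**Figure D1:**
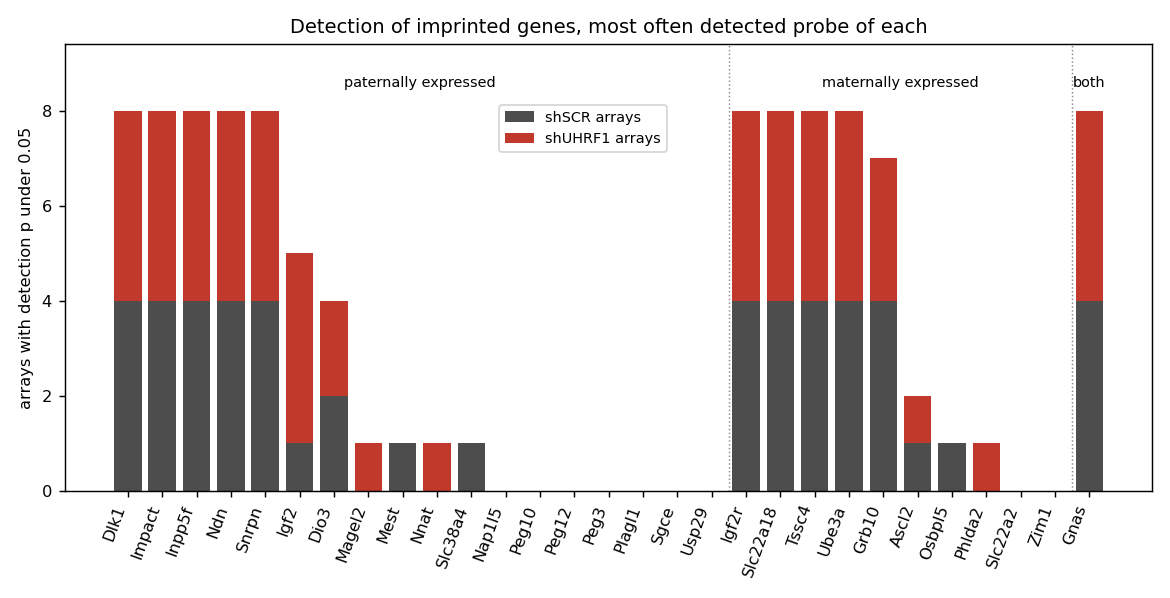
Number of arrays, out of 8, on which the most often detected probe of each imprinted gene with a probe had a detection p under 0.05, split into shSCR (grey) and shUHRF1 (red) arrays. On no array were 7 of 18 paternally expressed genes (38.9%) and 2 of 10 maternally expressed genes (20.0%) detected, where the share of all genes was 37.9%; the difference between the classes was not tested.

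Dlk1 showed the largest difference of the 12 tested genes over all arrays, though not on the first arrays alone, where Igf2r stood at 1.28 and Dlk1 at 1.12. It encodes a transmembrane protein related to Notch ligands that keeps precursor cells, preadipocytes among them, undifferentiated, and it is read from the paternal copy. Its level was 11.34 and 11.42 on the arrays of shSCR sample 1 and 10.98 and 10.89 on those of sample 2. It was 12.30 and 12.18 in shUHRF1 sample 1 and 12.27 and 11.90 in sample 2. All 4 shUHRF1 arrays exceeded all 4 shSCR arrays. Dlk1 was 2.01-fold higher with both samples together (difference 1.00, SE 0.21, limma adjusted p = 0.287), by 1.08 in sample 1 and by 0.93 in sample 2. The difference was 0.89 on the second arrays alone, so that it held within each set of arrays. The shSCR samples differed from each other by 0.45. The neighbouring Meg3, the maternally expressed noncoding RNA of that cluster, had no probe under its symbol.

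Igf2r followed. It encodes the mannose-6-phosphate receptor, which delivers lysosomal enzymes and takes up IGF2 for degradation, and it is maternally expressed. Its level was 7.48 and 7.13 in shSCR sample 1 and 6.52 and 7.14 in sample 2. It was 8.15 and 7.99 in shUHRF1 sample 1, and 8.41 on the first but 7.09 on the second array of sample 2. That second array lay within the shSCR range, and the other 3 shUHRF1 arrays lay above it. Igf2r was 1.79-fold higher (difference 0.84, SE 0.23, limma adjusted p = 0.287), with 1.00 in sample 1 and 0.68 in sample 2. Its other probe differed by 0.82 (SE 0.25) and showed the same array pattern, with 8.03 and 6.86 in shUHRF1 sample 2. The difference was 1.28 on the first arrays, 0.40 on the second and 0.34 in the authors' processed values.

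The maternally expressed Slc22a18, an organic cation transporter-like gene beside Kcnq1ot1, had the closest controls. Its level was 6.91, 6.97, 6.84 and 7.01 on the shSCR arrays. It was 8.11 and 7.54 in shUHRF1 sample 1 and 7.64 and 6.93 in sample 2. As for Igf2r, only the second array of sample 2 fell back among the controls. The difference was 0.62 (SE 0.22, limma adjusted p = 0.311), by 0.89 in sample 1 and 0.35 in sample 2, and it was 1.00 on the first arrays and 0.25 on the second. It was 0.40 without background correction and 0.23 in the authors' processed values. Its other probe was detected on no array.

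Impact, whose product restrains the amino acid sensor kinase GCN2 and which is paternally expressed in mouse, stood at 9.38 and 9.36 in shSCR sample 1 and 9.08 and 9.04 in sample 2. It reached 10.43 and 9.77 in shUHRF1 sample 1 and 9.89 and 9.34 in sample 2. The second array of sample 2 again lay within the shSCR range. The difference was 0.64 (SE 0.23, limma adjusted p = 0.311), by 0.89 in sample 1 and 0.40 in sample 2. It was 0.93 on the first arrays and 0.36 on the second.

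Igf2, the paternally expressed growth factor gene of the H19 cluster, was dim. Its mean level was 4.84 and 4.70 in the shSCR samples, and it was 5.11, 5.06, 5.58 and 4.89 on the shUHRF1 arrays. The difference was 0.39 (SE 0.17, limma adjusted p = 0.355), and both shUHRF1 sample means lay above both shSCR means while single arrays overlapped. It was 0.19 at a background offset of 50, 0.12 without background correction and 0.05 in the authors' processed values. Its size is uncertain, because 3 of 4 shSCR arrays did not detect it.

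**Figure D2:**
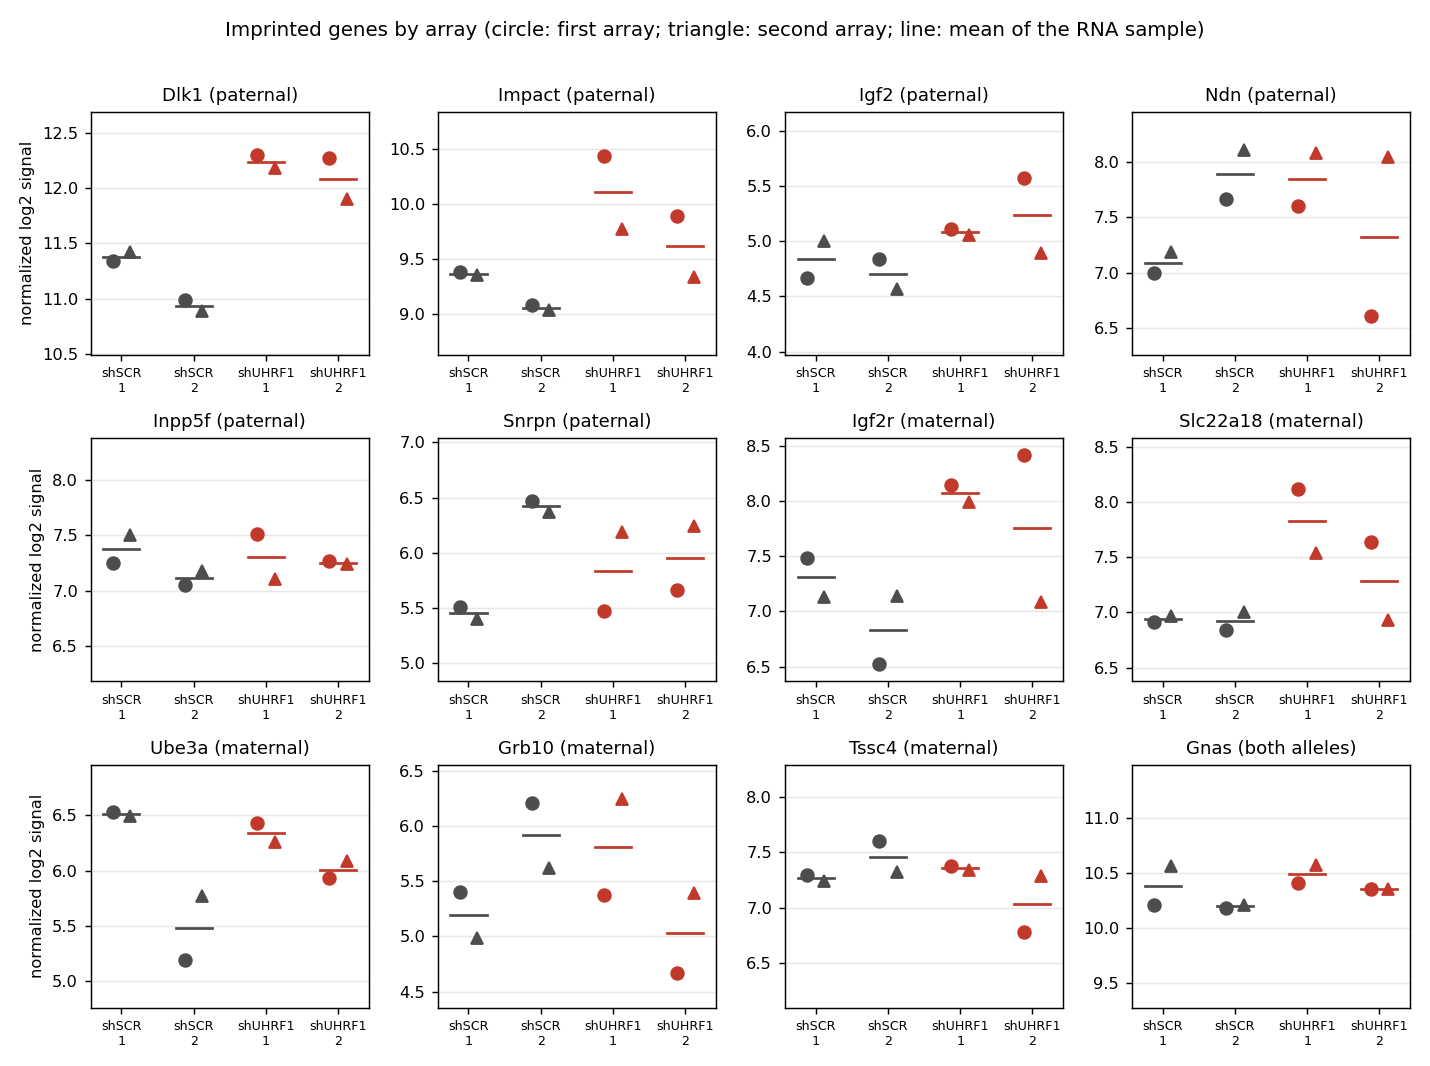
Normalized log2 signal of the brightest tested probe of each tested imprinted gene on each of the 8 arrays, with shSCR in grey and shUHRF1 in red, circles for first and triangles for second arrays, and lines for the mean of an RNA sample. Each panel spans 2.2 log2 units. Dlk1 is the gene whose shUHRF1 arrays, 11.90 to 12.30, all lie above the shSCR arrays.

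Windows around the transcription start of 3 of these genes are shown because CpG sites are what UHRF1 and DNMT1 maintain, together with that of Peg3, a maternally methylated control region whose gene was detected on no array. Each runs from 250 bases before to 50 after the start, is taken from RefSeq (GRCm38.p6) and is written along the gene's strand, with CpG sites in capitals. They lie at chr12:109452573-109452872 (plus strand) for Dlk1, chr17:12769657-12769956 (minus strand) for Igf2r, chr7:143473539-143473838 (plus strand) for Slc22a18 and chr7:6730370-6730669 (minus strand) for Peg3.
Dlk1: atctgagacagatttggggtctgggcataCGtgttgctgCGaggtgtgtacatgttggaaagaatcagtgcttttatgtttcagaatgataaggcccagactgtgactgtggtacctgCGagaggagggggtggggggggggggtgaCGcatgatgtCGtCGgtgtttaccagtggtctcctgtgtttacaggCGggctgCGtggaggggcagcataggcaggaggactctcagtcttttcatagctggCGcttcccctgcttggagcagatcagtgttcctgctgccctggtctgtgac
Igf2r: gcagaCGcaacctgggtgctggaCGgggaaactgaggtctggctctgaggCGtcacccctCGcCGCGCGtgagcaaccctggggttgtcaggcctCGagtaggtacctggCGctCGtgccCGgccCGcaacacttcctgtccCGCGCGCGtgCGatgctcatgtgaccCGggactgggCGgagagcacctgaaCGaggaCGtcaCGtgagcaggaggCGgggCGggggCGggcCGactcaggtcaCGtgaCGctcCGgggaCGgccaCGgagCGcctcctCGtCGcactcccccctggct
Slc22a18: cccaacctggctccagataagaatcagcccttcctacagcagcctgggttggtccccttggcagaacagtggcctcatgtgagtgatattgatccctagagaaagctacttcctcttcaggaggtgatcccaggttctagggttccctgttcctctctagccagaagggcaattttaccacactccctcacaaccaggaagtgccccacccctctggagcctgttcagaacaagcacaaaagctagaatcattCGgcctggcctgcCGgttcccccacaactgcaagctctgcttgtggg
Peg3: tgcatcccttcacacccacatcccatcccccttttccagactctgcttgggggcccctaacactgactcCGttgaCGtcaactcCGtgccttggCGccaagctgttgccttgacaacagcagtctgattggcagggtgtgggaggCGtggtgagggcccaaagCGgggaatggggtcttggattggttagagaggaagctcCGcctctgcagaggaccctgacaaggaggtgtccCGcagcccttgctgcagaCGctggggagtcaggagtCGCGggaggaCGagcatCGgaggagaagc

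The shown windows of the higher genes differed in CpG content. Impact had no window, and the richest window of Igf2, not shown, held 24 sites. Whether the windows of Dlk1, Igf2r and Slc22a18 overlap the control regions of their clusters was not examined. The window of Igf2r held 34 CpG sites, that of Dlk1 9 and that of Slc22a18 2, against 13 in Peg3, whose window shares 263 bases with that of the divergent Usp29. A motif of CG reads the same on both strands. Windows were found for 32 members by symbol, not for H19, Impact, Peg10 and Sgce. With the window richest in CpG taken for each gene, the median was 17.0 sites over these 32 members and 8.0 over 27025 genes. The ratio of observed to expected CpG was above 0.6 in 19 of the 32 members (59.4%) and in 38.2% of all genes. The share was similar among members that were tested (7 of 11) and members with a probe that were not (9 of 15). These counts describe sequence only, and methylation was not measured here.

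On their brightest probes, the remaining tested genes differed less between the groups than between the control samples. The other tested probes of Ube3a and Tssc4 did not follow this. They differed by -0.21 and -0.25 between the groups, and by -0.14 and -0.05 between the shSCR samples. Snrpn, which encodes the spliceosomal protein SmN of the Prader-Willi region and is paternally expressed, differed by -0.05 (SE 0.32), while shSCR sample 2 lay 0.97 above sample 1. Its level was 5.51 and 5.40 in shSCR sample 1, 6.47 and 6.37 in sample 2, 5.48 and 6.19 in shUHRF1 sample 1, and 5.67 and 6.24 in sample 2. All shUHRF1 arrays fell between the extremes of the controls.

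Ndn, the necdin gene of the same region, a growth suppressor of the MAGE family, differed by 0.10 (SE 0.31). It stood at 6.99 and 7.18 in shSCR sample 1 and 7.67 and 8.11 in sample 2, and at 7.60 and 8.09 in shUHRF1 sample 1 and 6.60 and 8.04 in sample 2. The first array of shUHRF1 sample 2 was the lowest of the 8, and its second array lay among the higher controls. Its direction turned to -0.30 without shSCR sample 1 and to -0.16 without shUHRF1 sample 1.

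Ube3a, a ubiquitin ligase gene next to them that is read from the maternal copy in neurons, gave 0.18 (SE 0.35) with its brightest probe, against -0.21 (SE 0.16) with another. On the former its level was 6.53 and 6.50 in shSCR sample 1, 5.19 and 5.77 in sample 2, 6.43 and 6.26 in shUHRF1 sample 1, and 5.93 and 6.08 in sample 2. There shSCR sample 2 lay 1.03 below sample 1, and the direction turned to -0.34 without shSCR sample 2. Its probes thus disagreed in sign, and 2 further probes were detected on no array.

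Grb10, an adaptor that dampens insulin and IGF receptor signalling and is maternally expressed outside the brain, differed by -0.13 (SE 0.34). The shUHRF1 samples pointed in opposite directions, 0.26 in sample 1 and -0.52 in sample 2. Its levels were 5.37 and 6.24 on the arrays of shUHRF1 sample 1 and 4.67 and 5.39 on those of sample 2, against 4.99 to 6.20 on the shSCR arrays. The direction turned to 0.23 without shSCR sample 2 and to 0.26 without shUHRF1 sample 2, and it was 0.51 on the second arrays alone.

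Tssc4, which in human cells takes part in spliceosome assembly, differed by -0.17 (SE 0.19) and by -0.25 (SE 0.16) on its other probe, with 6.78 and 7.28 on the arrays of shUHRF1 sample 2. Inpp5f, a phosphoinositide phosphatase gene, differed by 0.04 (SE 0.18), with levels of 7.05 to 7.50 on shSCR and 7.10 to 7.51 on shUHRF1 arrays, of which those of sample 2 read 7.27 and 7.24. Gnas, which encodes the stimulatory G-protein alpha subunit, differed by 0.13 (SE 0.17) and by 0.11 (SE 0.17) on its other tested probe, with 10.35 and 10.36 on the arrays of shUHRF1 sample 2. The groups overlapped in each of the 3 genes, and 2 further probes of Gnas and 2 of Inpp5f were not tested.

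None of the 12 genes passed limma at an adjusted p of 0.05, and 0% of the 7502 tested genes passed. At an unadjusted p under 0.05, Dlk1, Igf2r, Impact and Slc22a18 were higher, 4 of 12 where 7.92% of all tested genes were, and 0 of 12 were lower where 6.66% were. All shUHRF1 arrays exceeded all shSCR arrays in 1 of 12 members (Dlk1), against 8.17% of all tested genes, and below in 0 of 12, against 8.45%. Array by array, the members were therefore near the background. With 12 genes the counts are small, and no test of the list was made. On the second arrays alone, 1 of 12 members had an unadjusted limma p under 0.05, where 619 of 7502 tested genes did. Without shSCR sample 2 the differences of Dlk1, Igf2r, Impact and Slc22a18 were 0.78, 0.60, 0.49 and 0.61. They were 0.93, 0.68, 0.40 and 0.35 without shUHRF1 sample 1.

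Set against shSCR on its own, shUHRF1 sample 1 was higher in 10 of 12 members and lower in 2, with a median difference of 0.33, where 3749 of all 7502 tested genes were higher. At a difference of 0.5 or more, Dlk1, Igf2r, Impact and Slc22a18 were higher in it, 4 of 12 against 12.7% of all tested genes, and 0 of 12 were lower, against 12.1%. In shUHRF1 sample 2, 9 of 12 members were higher and 3 lower, with a median of 0.04, where 3557 of 7502 were higher. Dlk1 and Igf2r were at least 0.5 higher there, 2 of 12 against 8.17% of all tested genes, and Grb10 was at least 0.5 lower, 1 of 12 against 5.49%. Both comparisons share the same shSCR samples, and neither was tested, since each rests on 1 RNA sample. Over both samples 9 of 12 members were higher, with a median of 0.16, where 3636 of 7502 tested genes were higher and their median was -0.01. Igf2, tested through the shUHRF1 group alone, is among the higher members in each count by sign, but not in those at 0.5 or more.

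**Figure D3:**
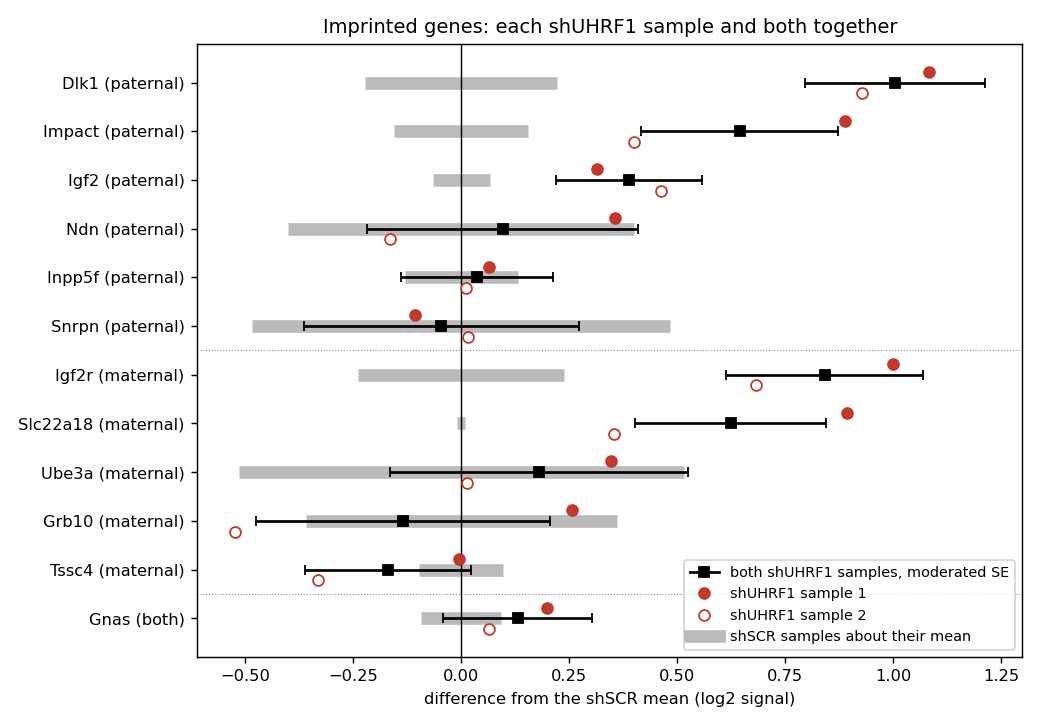
Difference from the shSCR mean in log2 signal for each tested imprinted gene, with both shUHRF1 samples together (black squares, bars for the moderated SE), shUHRF1 sample 1 (filled circles) and sample 2 (open circles), and grey bars from one shSCR sample to the other. For Snrpn, Ndn, Ube3a and Grb10 the grey bars, 0.72 to 1.03 wide, exceed the difference between the groups.

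Paternally and maternally expressed members did not separate. Among the paternally expressed genes 5 of 6 were higher, with a median difference of 0.24, and among the maternally expressed genes 3 of 5, with a median of 0.18. The gap between the medians was 0.06. The maternal median was the value of the brightest Ube3a probe, over both samples and in each alone, and the probes of Ube3a disagreed in sign. Ube3a, Tssc4 and Inpp5f were kept in their classes, although their imprints are known in neurons, placenta and brain. Whether they are imprinted in these cells was not tested. With the genes detected on all 8 arrays, which leaves out Igf2 and Grb10, the medians were 0.10 and 0.40 and the gap turned to -0.31. It was -0.01 in shUHRF1 sample 1 (medians of 0.34 and 0.35) and 0.20 in sample 2 (0.21 and 0.01), and it was -0.18 between the shSCR samples themselves (sample 2 minus sample 1). The gap thus lay within the spread between samples. Each class held 2 of the genes with the larger differences, Dlk1 and Impact on the paternal side and Igf2r and Slc22a18 on the maternal side.

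Clusters with more than 1 tested member were the Prader-Willi region, with Snrpn, Ndn and Ube3a at -0.05, 0.10 and 0.18, and that of Kcnq1ot1, with Slc22a18 at 0.62 and Tssc4 at -0.17. On these brightest probes all but Slc22a18 lay within 1 SE of 0, so that no shared or opposed direction was established in either cluster. The other tested probes of Ube3a and Tssc4 lay beyond 1 SE, at -0.21 (SE 0.16) and -0.25 (SE 0.16).

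The arrays of 1 RNA sample were then compared for the members, each array against the shSCR arrays of the same set. In shUHRF1 sample 1, 8 of 12 members had the same sign on both arrays, and the median absolute gap between the arrays was 0.37. In sample 2 the sign agreed in 3 of 12, Dlk1, Impact and Igf2, with a median gap of 0.67. Igf2r stood at 1.41 on the first array of sample 2 and at -0.05 on the second, and Slc22a18 at 0.76 and -0.05. Grb10 stood at -1.13 and 0.08 there, and at -0.43 and 0.94 in sample 1. Dlk1 stood at 1.13 and 1.03 in sample 1 and at 1.11 and 0.74 in sample 2, the one member at 0.7 or more on all 4 arrays.

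**Figure D4:**
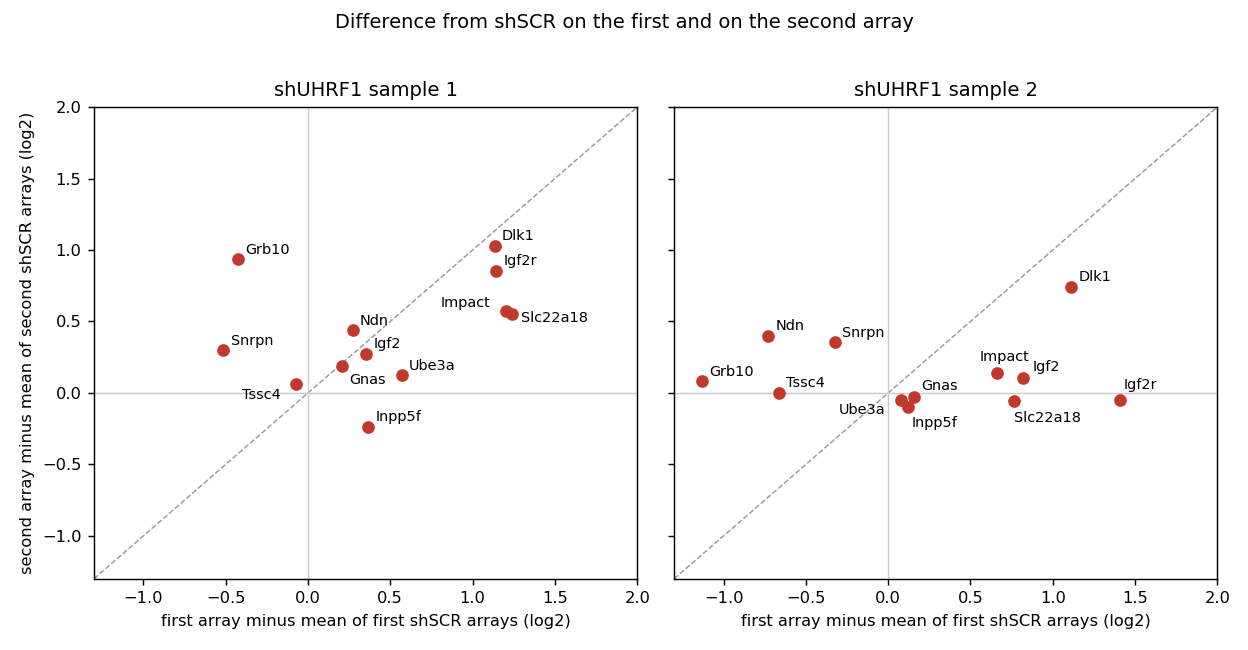
Difference from the shSCR arrays of the same set on the first array (horizontal) and the second array (vertical) of each shUHRF1 sample in log2 signal, with 1 point for each tested imprinted gene and a dashed line for equal values. In sample 2 Dlk1 stands at 1.11 and 0.74, whereas Igf2r stands at 1.41 and -0.05.

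Of 22 genes in a list drawn up around imprint maintenance, not all of which have that role, 18 had a probe and 10 were tested. None of the 10 passed limma's adjusted threshold, and 8 were lower and 2 higher, with a median of -0.25, where 3866 of 7502 tested genes were lower. The shUHRF1 arrays were all below the shSCR arrays in 4 of 10, where 8.45% of all tested genes were. These were Uhrf1, Dnmt1, Setdb1 (a histone H3 lysine methyltransferase that acts with TRIM28, -0.29, SE 0.17) and Rlim (a ubiquitin ligase, -0.47, SE 0.16). Uhrf1 is the target of the hairpin, so its direction is set by the design and it adds nothing to these counts. Trim28 differed by -0.23 (SE 0.18) and the insulator protein gene Ctcf by -0.28 (SE 0.17), and both overlapped between the groups.

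Of 34 further genes listed as imprinted, 26 had a probe and 10 were tested, with 6 higher, 4 lower and a median of 0.23. Whether these genes are imprinted in smooth muscle cells was not tested. The shUHRF1 arrays were all above the shSCR arrays in 2 of 10, against 8.17% of all tested genes, namely Cd81, a tetraspanin gene (0.44, SE 0.19), and Pon2, a paraoxonase gene (0.33, SE 0.16). They were all below in 1 of 10, against 8.45%, namely Commd1, a copper and NF-kB regulator (-0.19, SE 0.17). None passed limma's adjusted threshold.

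Markers of other cells and of division moved as follows beside these values. 3 of 5 dividing-cell genes with a probe were tested, and all 3 were lower, with a mean level of 10.79 and 10.90 in the shSCR samples and 9.69 and 10.54 in the shUHRF1 samples. Top2a (-0.68, SE 0.28) and Plk1 (-0.85, SE 0.36) were lower on all shUHRF1 arrays than on all shSCR arrays, and Cdk1 (-0.65, SE 0.25) overlapped. All 5 adventitial fibroblast and progenitor markers with a probe were tested, with a mean level of 6.24 and 5.61 in shSCR and 5.96 and 6.83 in shUHRF1 samples. Relative to shSCR their median was 1.71 on the first and 0.12 on the second array of shUHRF1 sample 2. Pi16 read 9.01 and 6.51 there and 8.07 and 7.36 in sample 1, against 6.25 to 7.25 on the shSCR arrays. Scara5, detected on 2 of 4 shSCR arrays and tested through the shUHRF1 group, read 7.23 and 5.10 in shUHRF1 sample 2 and 7.04 and 5.13 in sample 1, against 4.43 to 5.64 in shSCR. On the second arrays its shUHRF1 values thus lay within the shSCR range. Pdgfra, Dpt and Cd34 differed in sign between the shUHRF1 samples. The 5 tested smooth muscle markers had a mean level of 8.82 and 9.23 in shSCR and 9.48 and 9.37 in shUHRF1 samples. Tagln, an actin-binding contractile marker, was above all shSCR arrays on every shUHRF1 array, by 1.27 (SE 0.20, limma adjusted p = 0.287), more than any imprinted member. Its level was 4.82 to 5.41 on the shSCR arrays, 5.64 and 7.27 in shUHRF1 sample 1 and 5.54 and 6.98 in sample 2. The 4 probes of Acta2, smooth muscle actin, gave differences from 0.57 (SE 0.31) to 1.25 (SE 0.41), each with overlap between the groups. Each of these probes differed more between the shSCR samples, by 0.89 to 1.33. On their brightest probes Tpm2 differed by 0.25 (SE 0.22), Smtn by 0.12 (SE 0.18) and Cald1 by -0.23 (SE 0.24), all with overlap. The endothelial markers Cdh5, Tie1 and Vwf and the leukocyte markers Ptprc, Adgre1 and Itgam were detected on no array. Of the other endothelial markers, Tek was detected on 2 arrays of each group and Pecam1 on 1 shUHRF1 array. Kdr, tested through the shSCR group, was detected on 4 of 4 shSCR and 2 of 4 shUHRF1 arrays. It differed by -0.40 (SE 0.19), with overlap between the groups. The leukocyte marker Cd14 differed by -0.26. The part of these cells in the members' differences was not tested, and fewer cells of a type cannot be told apart from less RNA per cell.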

How the data were processed

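Expression in 4 RNA samples of primary VSMC was measured on 8 bead arrays. The deposited intensity values are mean bead signals per probe and array, per the file headers, not normalized between arrays, and detection p-values stand beside them. GenomeStudio 2011.1 and lumi are named in the submitters' processing notes. Background subtraction and the log base of the deposited log2-like processed table are not given in the sources used here, and that table served as an alternative. 2 of 25671 probes had unreadable entries and were left out.

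Signals were corrected by normexp from detection p-values (offset 16), quantile-normalized and log2-transformed (nec in limma 3.58.1, R 4.3.3). Arrays of an RNA sample were averaged, and all 10880 tested probes (7502 genes) were fitted by limma without a block, with Benjamini-Hochberg adjustment. The fit was run on simulated data with independent noise and planted differences larger than that of any member. Recovery of differences as small as those of the members was therefore not tested. The number of arrays limits precision, and 45.1% to 48.2% of the probes on an array were detected. Every member with a probe is named, and genes of the reference lists are named where all shUHRF1 arrays lay on one side of all shSCR arrays, with some others, marker genes among them, added after their values were seen. Members, parental classes and lists were chosen with earlier results of these data known. Same-numbered samples did not deviate together (r = -0.15). Alternatives changed background, scaling, filter, probe choice, arrays, block and samples.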

Additional observations from a re-analysis of the deposited data

Results flagged for a closer look

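2 of 24 sets of 4 arrays held an array far from the other 3, by Dixon's criterion. For 4 independent readings chance gives about 1 in 20. The arrays of 1 RNA sample are not independent, so that rate does not carry over here. Tssc4 stood at 6.78 on the first array of shUHRF1 sample 2, against 7.28 to 7.38 on the other shUHRF1 arrays. Gnas stood at 10.56 on the second array of shSCR sample 1, against 10.18 to 10.21 on the other shSCR arrays.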

How the results depend on the processing

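Over the alternatives, 0 imprinted members passed limma's adjusted threshold. Over all genes 0 passed, except 1 on the second arrays alone (Uhrf1), 1 with the RNA sample number as a replicate block (Uhrf1) and 3 with the RNA sample as a random block on 8 arrays (Uhrf1, Neurl1a and Clu). Crossing the numbers in the block, added after seeing the data because same-numbered samples correlated at -0.15, gave 2. Dlk1 kept its direction in all 17 alternatives (0.78 to 1.23), as did Igf2r (0.34 to 1.28), Impact (0.36 to 0.93), Slc22a18 (0.23 to 1.00), Gnas (0.04 to 0.22) and, in 16, Igf2 (0.05 to 0.59). Some alternatives cannot move such a difference, so a direction kept in them adds nothing. That of Dlk1, which has a single probe, stayed at 1.00 under both changes of filter and the mean of all tested probes. It also stayed there with the random block and the replicate block. The median over members, 0.16, was 0.0016 without a detection filter, 0.049 in the authors' processed values, 0.097 without background correction and 0.039 to 0.38 with 1 RNA sample left out. The paternal median of 0.24 was 0.10 without background correction, 0.14 at offset 50, 0.049 in the authors' processed values, 0.0004 without a detection filter, 0.10 with detection on all 8 arrays, 0.42 on the first and 0.34 on the second arrays, 0.34 with shUHRF1 sample 2 from its second array, a choice made after seeing the data, and 0.21 to 0.46 with 1 RNA sample left out. The maternal median of 0.18 was -0.058 without a filter, -0.017 with the mean of all tested probes, 0.022 in the authors' processed values, 0.055 without background correction, 0.098 at offset 50, 0.40 with detection on all 8 arrays, 0.32 on the first arrays and 0.013 to 0.63 with 1 sample left out. The gap between them, 0.06, was -0.31 with detection on all 8 arrays, 0.26 with the mean of all tested probes, and -0.32 to 0.24 with 1 sample left out. Directions that turned were those of members near 0: Snrpn at 0.056 with median scaling, 0.33 on the second arrays, 0.10 with shUHRF1 sample 2 from its second array and -0.53 to 0.44 with 1 sample left out; Ndn at -0.23 on the first arrays, -0.26 with shUHRF1 sample 2 from its first array and -0.30 to 0.50 with 1 left out; Ube3a at -0.017 with the mean of its probes and -0.34 to 0.69 with 1 left out; Tssc4 at 0.032, Grb10 at 0.51 and Inpp5f at -0.17 on the second arrays; Grb10 also at 0.046 with shUHRF1 sample 2 from its second array; and Grb10 at -0.52 to 0.26 and Inpp5f at -0.093 to 0.17 with 1 left out. Their causes were not tested. A lone RNA sample was assumed to vary like the other group. A block by chip was not run, since the files name no chip. Members not detected have only an upper limit set by array background.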
